A study of Mus musculus with 4 samples.

Results

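Genes of the endoplasmic reticulum (ER) that fold secretory proteins or send misfolded ones for destruction were examined in mouse embryonic stem cells (mESCs) given lactate. The set holds 37 genes of the 55335 in the deposited count table, chosen by symbol from a written list of the stress sensors and factors ATF6, IRE1 and XBP1, the chaperones and folding enzymes, the translocation channel, and the components of ER-associated degradation (ERAD). All 37 were found and all 37 passed the filter on low counts, which left 18661 genes for testing. RNA-seq was performed on the mESC line AB2.2, a culture grown over mouse embryonic fibroblast feeders, in 2 control libraries and in 2 lactate libraries, made after 24 h with 50 mM lactate in the medium. Both groups shared the same medium with serum, leukemia inhibitory factor and the inhibitors CHIR99021 (of GSK3) and PD0325901 (of MEK). The labels do not say whether the libraries of a group came from separate cultures, so the p-values measure the spread between these libraries alone, and an exact permutation test of 2 against 2 libraries cannot give a two-sided p below 0.33.

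Proteins bound for secretion or for membranes enter the ER through the SEC61 channel, where the chaperone BiP, the lectins calnexin and calreticulin and the protein disulphide isomerases fold them. Chains that fail to fold are recognised by lectins, passed back through a membrane complex built on SEL1L and the ubiquitin ligase HRD1, and degraded by the proteasome. Unfolded protein is sensed by ATF6, which on cleavage raises chaperone genes, by IRE1, which splices the Xbp1 mRNA, and by PERK, which acts through eIF2 and ATF4, and ATF4 is also raised by other stresses such as amino acid shortage.

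The gene counts of the libraries summed to 18067562 and 19077885 in the controls and 18542554 and 18948861 with lactate. Libraries of the same group differed by far more than counting noise, with a chi-square of 32.7 per degree of freedom between the controls and 31.8 between the lactate libraries, so neither group held 1 library deposited again. Mitochondrial genes took 5.48% and 5.72% of the counts in the libraries numbered 1 and 2.43% and 2.82% in those numbered 2, a difference that followed the replicate number and not the treatment. All 10 listed mESC markers, among them Pou5f1, Nanog and Esrrb, were detected. The 16 listed feeder fibroblast markers were also detected, with a summed level of 3711 and 4040 CPM (counts scaled to the library size after TMM normalization) in the controls and 4503 and 4130 with lactate. Fn1 alone held 2390 and 2348 CPM of these sums in the controls and 3322 and 2847 with lactate, and the other 15 markers summed to 1321 and 1692 in the controls and 1181 and 1283 with lactate, a ratio of 0.818 in the other direction. Some of the markers, such as Vim and Fn1, are also expressed by mESCs, and in bulk RNA fewer cells of a type and less RNA per cell cannot be told apart.

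Of the members, 1 was upregulated and 1 downregulated upon lactate supplementation. Herpud1, the scaffold protein of the HRD1 degradation complex, was upregulated 5.02-fold, and Hspa5, which encodes BiP, was downregulated 2.23-fold. These were the members called at an adjusted p below 0.05 and a change of more than 2-fold, 1 in each direction, where 0.552% of all genes tested were called higher and 0.348% lower. At an adjusted p below 0.10, 1 member was higher (3.78% of all genes tested) and 5 were lower (3.89% of all genes), namely Hspa5, Hsp90b1, Manf, Calr and Pdia4. At an unadjusted p below 0.05, 2 members were higher (11.7% of all genes) and 9 were lower (11.4% of all genes). Both lactate libraries lay above both controls in CPM for 6 members (27% of all genes) and below them for 16 (25.9% of all genes), and the groups overlapped for 15. The median log2 fold change was -0.14 over the 37 members, with a range from -1.16 to 2.33, and 0.01 over all genes tested. All adjusted p-values marked edgeR are from its quasi-likelihood test on the counts, adjusted by the Benjamini-Hochberg method over 18661 genes, and a log2 fold change is given with its standard error (SE).

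**Figure D1:**
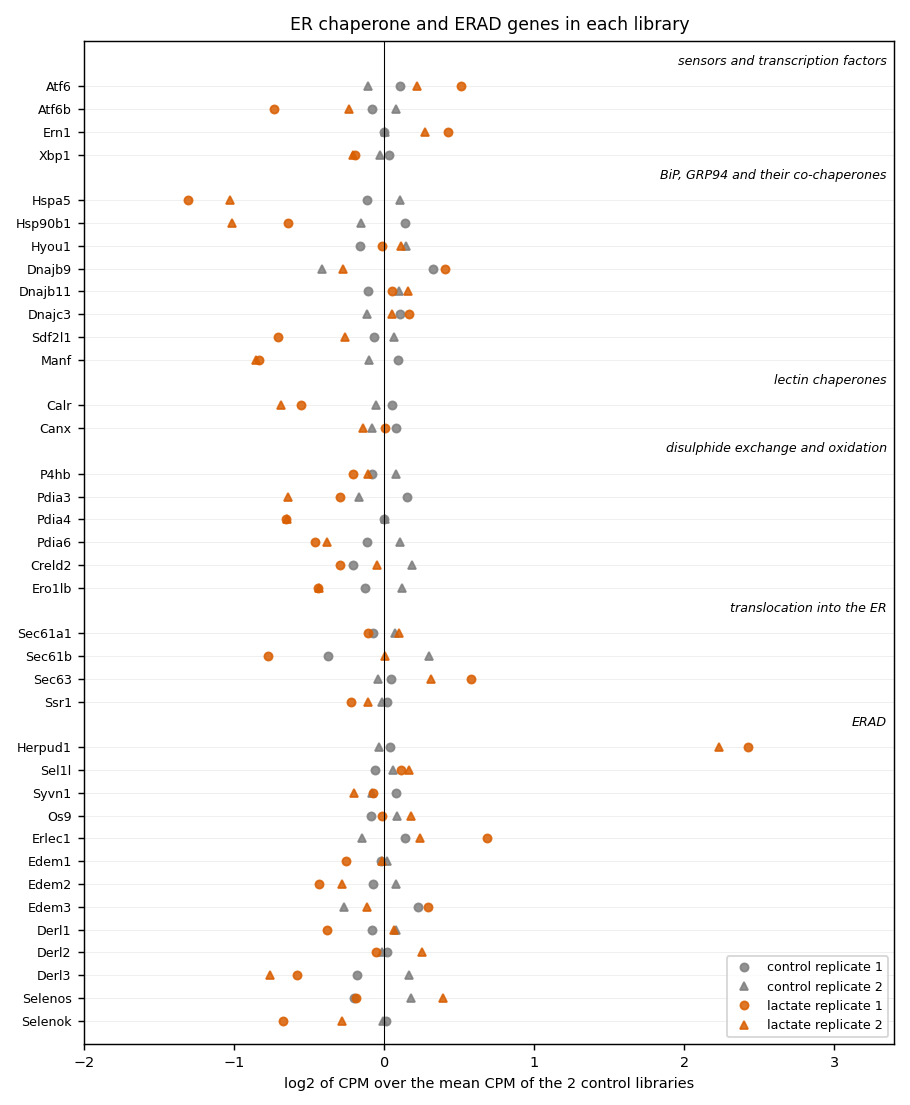
CPM of each member in the 4 libraries, as log2 of its ratio to the mean of the 2 control libraries (x axis), with members grouped by role (y axis), grey for control and orange for lactate, circles for replicate 1 and triangles for replicate 2. Herpud1 stands alone on the right and Hspa5, Hsp90b1, Manf, Calr and Pdia4 lie on the left, while the groups overlap for 15 members.

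The promoters of these genes carry short sequences known as ER stress elements, and those of the 2 called members and of Hsp90b1 are shown to set their letters beside the measured changes. The ER stress element (ERSE) is CCAAT, then 9 bases, then CCACG, the first part being bound by NF-Y and the second by ATF6 or XBP1. ERSE-II is ATTGG, then 1 base, then CCACG, in which ATTGG is CCAAT read on the other strand. The ATF4 core was taken as TGATG, then 1 base, then AA. Each sequence below is the RefSeq promoter on GRCm38.p6, from 250 bases before to 50 bases after the RefSeq start, read along the gene, with the matches to these letters in capitals.
Hspa5, chr2:34771840-34772139, plus strand: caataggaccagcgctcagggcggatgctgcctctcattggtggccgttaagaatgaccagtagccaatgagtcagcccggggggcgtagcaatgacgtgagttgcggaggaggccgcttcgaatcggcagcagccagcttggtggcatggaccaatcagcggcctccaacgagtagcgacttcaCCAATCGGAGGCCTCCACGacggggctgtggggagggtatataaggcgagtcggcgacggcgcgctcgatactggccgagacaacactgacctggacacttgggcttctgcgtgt
Hsp90b1, chr10:86705395-86705694, minus strand: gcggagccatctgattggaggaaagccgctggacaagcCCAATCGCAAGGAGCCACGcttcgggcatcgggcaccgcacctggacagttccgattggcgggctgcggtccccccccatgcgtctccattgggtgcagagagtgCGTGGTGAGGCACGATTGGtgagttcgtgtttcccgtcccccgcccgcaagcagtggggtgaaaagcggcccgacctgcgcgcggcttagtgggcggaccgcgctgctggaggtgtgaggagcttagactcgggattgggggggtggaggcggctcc
Herpud1, chr8:94386179-94386478, plus strand: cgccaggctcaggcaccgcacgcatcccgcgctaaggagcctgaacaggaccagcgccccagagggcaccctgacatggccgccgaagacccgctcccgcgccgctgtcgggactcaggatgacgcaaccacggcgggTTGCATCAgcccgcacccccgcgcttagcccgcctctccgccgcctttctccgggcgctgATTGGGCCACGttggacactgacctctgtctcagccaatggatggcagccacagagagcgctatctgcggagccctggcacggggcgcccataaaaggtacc
In Hspa5 the capitals mark an ERSE that begins 65 bases before the start. In Hsp90b1 they mark a pair of ERSEs, the first on the strand of the gene and the second on the other strand, so that it reads as the reverse complement. In Herpud1 they mark an ATF4 core on the other strand, which begins 112 bases before the start, and an ERSE-II on the strand of the gene, 52 bases before it. GENCODE M21 places the start of Hspa5 (chr2:34771970-34777547, 7 merged exons) upstream of the RefSeq start, so this ERSE lies inside the annotated gene, while Herpud1 (chr8:94386438-94395377, 10 merged exons) starts inside its window.

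Among the 4 sensors and factors, none passed the test by edgeR or DESeq2. At an unadjusted p below 0.05 there were 0 by edgeR and 1 by DESeq2. This was Atf6b, which was lower, as were 4.99% of all genes by that tool. Atf6, the membrane-bound factor that is cleaved in the Golgi to raise chaperone genes, had an FPKM (fragments scaled to transcript length and library size) of 7.33 and 6.65 in the controls and 10.3 and 8.73 with lactate. Its paralog Atf6b had an FPKM of 17.3 and 19.2 in the controls and 11.1 and 16.5 with lactate. The values of neither gene overlapped between the groups, and they lay in opposite directions, with log2 fold changes of 0.37 (SE 0.16, edgeR adjusted p = 0.233) and -0.46 (SE 0.20, edgeR adjusted p = 0.232). Ern1, which encodes IRE1, had an FPKM of 4.23 and 4.11 in the controls and 5.69 and 5.01 with lactate, a log2 fold change of 0.35 (SE 0.15, edgeR adjusted p = 0.228). Xbp1, the transcript that IRE1 splices, had an FPKM of 34.3 and 31.7 in the controls and 31.3 and 30.6 with lactate, a log2 fold change of -0.20 (SE 0.12, edgeR adjusted p = 0.382). The lactate values of Ern1 were both above and those of Xbp1 both below the controls. Gene-level values do not separate the spliced and unspliced forms of Xbp1.

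Hspa5 was downregulated in the group of BiP, GRP94 and their co-chaperones. Its FPKM was 205.2 and 248.0 in the controls and 86.7 and 118.1 with lactate, so that the higher lactate library lay well under the lower control. The log2 fold change was -1.16 (SE 0.17, edgeR adjusted p = 0.0467), from a mean CPM of 573 ± 62.8 in the controls to 257 ± 35.1 with lactate (SD, n = 2 in each group). BiP is the HSP70 chaperone of the ER and holds the stress sensors inactive while it is bound to them. The adjusted p was close to the threshold, and the call was lost in 6 of 16 alternatives, with the log2 fold change between -1.31 and -1.05 in all of them. Without the first control library the edgeR adjusted p was 0.0511, and with DESeq2 it was 1.70e-06, in a range from 2.34e-11 with the replicate number as a term to 0.243 with limma-trend on FPKM.

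Hsp90b1, which encodes the HSP90 chaperone GRP94, had an FPKM of 370.1 and 331.3 in the controls and 228.4 and 188.3 with lactate. Manf, whose product is a small BiP-binding protein that can be secreted, had an FPKM of 97.4 and 123.1 in the controls and 44.4 and 72.7 with lactate. For both genes the lactate libraries lay below both controls, but neither passed the test. The log2 fold change of Hsp90b1 was -0.82 (SE 0.19, edgeR adjusted p = 0.0813), and that of Manf was -0.84 (SE 0.14, edgeR adjusted p = 0.0520). Both had an adjusted p below 0.05 by DESeq2, 0.00550 for Hsp90b1 and 0.00276 for Manf, in ranges over the alternatives from 2.97e-09 to 0.264 and from 1.62e-08 to 0.305. Without the first lactate library Hsp90b1 passed both thresholds, with a log2 fold change of -1.04 (edgeR adjusted p = 0.00753). Exons of 1810014B01Rik on the other strand cover 10.3% of the exon bases of Hsp90b1, and the largest overlap in Manf is 4.71%, so a part of these counts cannot be assigned to 1 gene. Whether strand was used in counting is not given in the sources used here, and smaller overlaps, with Gm15344 and Gm25745 for Hsp90b1 and Rbm15b for Manf, lie on the same strand.

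The co-chaperones of BiP had values on both sides of 0. Dnajb9, which encodes ERdj4 and is a classic XBP1 target, had an FPKM of 8.52 and 5.50 in the controls and 9.88 and 6.56 with lactate, values that followed the replicate number and overlapped between the groups. Its log2 fold change was 0.10 (SE 0.32, edgeR adjusted p = 0.887). Hyou1, the nucleotide exchange factor of BiP, and the J-domain genes Dnajb11 and Dnajc3 had log2 fold changes of 0.05, 0.10 and 0.11, with overlapping groups. Sdf2l1, a partner of the ERdj3 protein that Dnajb11 encodes, had an FPKM of 22.5 and 25.2 in the controls and 15.1 and 21.4 with lactate, a log2 fold change of -0.47 (SE 0.20, edgeR adjusted p = 0.233). Of the 8 genes of this group 4 had positive and 4 negative values, and all 4 negative ones had groups that did not overlap. Over all genes tested, both lactate libraries lay below both controls for 25.9%. Whether Hspa5 and its co-chaperones differ in response was not tested.

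**Figure D2:**
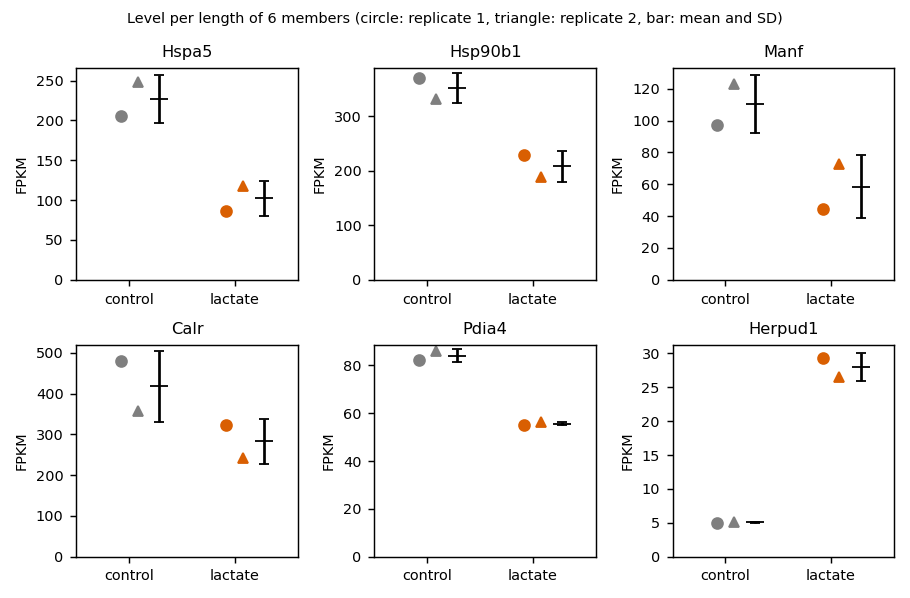
FPKM (y axis, from 0) of Hspa5, Hsp90b1, Manf, Calr, Pdia4 and Herpud1 in the control (grey) and lactate (orange) libraries, with a circle for replicate 1, a triangle for replicate 2 and the mean with its SD as a bar. Hspa5 stands at 205.2 and 248.0 against 86.7 and 118.1 and Herpud1 at 5.02 and 5.10 against 29.4 and 26.5. The groups do not overlap for any of the 6 genes. These are the members with an edgeR adjusted p below 0.10, so the lack of overlap is no further result. Over all genes tested, both lactate libraries lay above both controls in CPM for 27% and below them for 25.9%.

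The lectin chaperones calreticulin and calnexin bind the same trimmed glycans, the first in the lumen and the second in the membrane. Calr had the highest control level of the members, with an FPKM of 480.2 and 357.2 in the controls and 322.2 and 243.4 with lactate. Its log2 fold change was -0.62 (SE 0.14, edgeR adjusted p = 0.0805) and the groups did not overlap. Canx had a log2 fold change of -0.07 (SE 0.15), with overlapping groups and a mean FPKM of 169 ± 10.5 in the controls and 172 ± 4.67 with lactate (SD, n = 2 in each group). The FPKM of Hspa5 was 1.17 and 1.54 times that of Canx in the controls and 0.513 and 0.673 times that of Canx with lactate.

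All 6 genes of disulphide exchange and oxidation had negative log2 fold changes, with a median of -0.43. None passed the test, although 3 of them were lower at an unadjusted p below 0.05 by edgeR (11.4% of all genes). Pdia4, an isomerase with several thioredoxin-like domains, had close values within each group, with an FPKM of 82.1 and 86.1 in the controls and 55.1 and 56.2 with lactate. Its log2 fold change was -0.65 (SE 0.12, edgeR adjusted p = 0.0606), and by DESeq2 its adjusted p was 0.0152, in a range over the alternatives from 4.62e-08 to 0.243. Pdia3, the isomerase that works with calnexin and calreticulin, had an FPKM of 224.3 and 184.9 in the controls and 169.4 and 139.3 with lactate, a log2 fold change of -0.46 (SE 0.19, edgeR adjusted p = 0.211). Each of these genes had both lactate libraries below both controls. Pdia6, an isomerase known to bind BiP, had an FPKM of 154.3 and 181.9 in the controls and 124.9 and 138.2 with lactate, a log2 fold change of -0.42 (SE 0.14, edgeR adjusted p = 0.156). Ero1lb, an oxidase that supplies disulphides to these isomerases, had the lowest level of the members, with an FPKM of 1.57 and 1.64 in the controls and 1.52 and 1.29 with lactate and a log2 fold change of -0.44 (SE 0.21, edgeR adjusted p = 0.270). P4hb, the founding protein disulphide isomerase, and Creld2, an ER protein induced by unfolded protein, had log2 fold changes of -0.16 and -0.17. Of the 6 genes Creld2 was the one with overlapping groups, and both lactate libraries lay below both controls for 25.9% of all genes tested.

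None of the 4 translocation genes passed the test by edgeR or DESeq2, and Sec63 was the 1 gene with an unadjusted p below 0.05 by either tool. At that level 11.7% of all genes were higher by edgeR and 3.71% by DESeq2. Sec63, the J-domain protein that brings BiP to the channel, had an FPKM of 9.60 and 12.4 in the controls and 14.8 and 14.3 with lactate, a log2 fold change of 0.45 (SE 0.15, edgeR adjusted p = 0.143). It was the member with the second smallest p among those with higher values, and its groups did not overlap. Sec61a1, the pore of the channel, had a log2 fold change of 0.00 (SE 0.14), its sign changing between alternatives. Sec61b, a small subunit of the channel, had an FPKM of 153.6 and 232.4 in the controls and 122.7 and 194.9 with lactate, so its level followed the replicate number more than the treatment. Ssr1, a subunit of the translocon-associated complex, had a log2 fold change of -0.16 (SE 0.13, edgeR adjusted p = 0.496).

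Herpud1 was upregulated among the ERAD genes and no other ERAD member passed the test by edgeR or DESeq2. Its FPKM was 5.02 and 5.10 in the controls and 29.4 and 26.5 with lactate, on 148 and 154 reads against 831 and 771. The log2 fold change was 2.33 (SE 0.16, edgeR adjusted p = 0.0195). HERPUD1 is a short-lived membrane protein with a ubiquitin-like domain that organises the HRD1 complex, and its gene is known to be raised through the ATF6 and the PERK branches alike. The log2 fold change was between 2.20 and 2.44 in all 16 alternatives, and the call was lost only with limma-trend on FPKM, which called no gene at all (adjusted p = 0.152 and 0.0836). Its partners had other values, with log2 fold changes of 0.14 for Sel1l (SE 0.13, edgeR adjusted p = 0.572) and -0.14 for Syvn1 (SE 0.14, edgeR adjusted p = 0.612), the gene of the ligase HRD1.

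The other 12 ERAD members were divided evenly, 6 with positive and 6 with negative values, with a median log2 fold change of -0.02 and a range from -0.67 to 0.48. Erlec1, a lectin that reads the glycans of misfolded proteins, had an FPKM of 9.45 and 9.39 in the controls and 14.2 and 12.7 with lactate, a log2 fold change of 0.48 (SE 0.21, edgeR adjusted p = 0.241), and the related lectin Os9 had 0.08 (SE 0.15). Of the mannosidases that mark chains for removal, Edem2 had an FPKM of 13.8 and 16.2 in the controls and 11.4 and 13.1 with lactate, a log2 fold change of -0.36 (SE 0.15, edgeR adjusted p = 0.229), and Edem1 and Edem3 had -0.13 and 0.10 with overlapping groups. The lactate libraries were thus both above the controls for Erlec1 and both below them for Edem2. Derl3, one of the derlins thought to form the exit channel, was near the bottom of the range with 38 and 53 reads in the controls and 31 and 29 with lactate, a log2 fold change of -0.67 (SE 0.27, edgeR adjusted p = 0.205). Derl1 and Derl2, at higher levels, had -0.14 and 0.11 with overlapping groups. Selenok, a selenoprotein of the same machinery, had an FPKM of 26.6 and 24.2 in the controls and 9.41 and 18.1 with lactate, a log2 fold change of -0.47 (SE 0.19, edgeR adjusted p = 0.211), and Selenos had 0.13 (SE 0.25). Processed pseudogenes named after Selenok and Calr are in the annotation, and reads that match both copies may have been left out of or split between them.

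**Figure D3:**
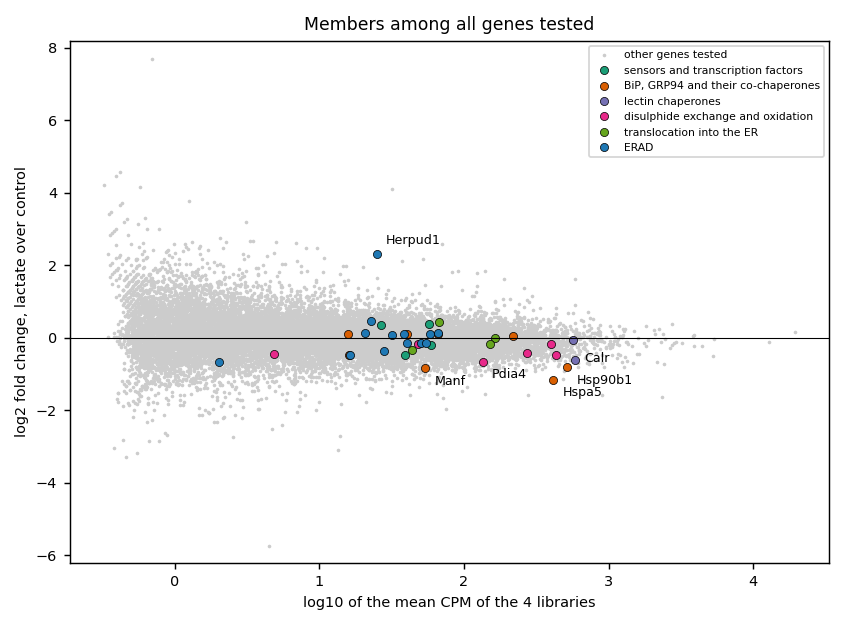
Log2 fold change of lactate over control (y axis) against the log10 of the mean CPM of the 4 libraries (x axis) for all 18661 genes tested in grey, with the 37 members coloured by role. Herpud1 lies at 2.33 among genes of middling level, and Hspa5, Hsp90b1 and Calr lie below the line among abundant genes.

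Ranked by level per length, the lower values lay with the abundant members, a pattern looked for after the values had been seen and given here as a description. It was weaker by CPM, the measure in which all genes are set beside the members below. The 10 members with the highest mean FPKM over the 4 libraries, all above 70, had 10 of 10 negative log2 fold changes with a median of -0.44, although that of Sec61a1, the last of them, was within 0.001 of 0, and those of Sec61a1, Canx and Sec61b changed sign in at least 1 alternative. Of the other 27 members 13 had negative values, with a median of 0.05. Among the 5078 genes tested with a mean CPM at least as high as the lowest of those 10 members (43.8), 55.5% had negative values and the median was -0.04. The 10 were picked by FPKM and these genes by CPM, so the 2 shares are not alike. Members outside the 10 also reach that CPM, with positive values such as Hyou1 at 0.05 and Sec63 at 0.45, and negative ones such as Xbp1 at -0.20 and Ssr1 at -0.16. Over the 37 members Spearman's rho between log2 fold change and mean FPKM was -0.50, against -0.20 with mean CPM in place of FPKM. Over all genes tested rho with mean CPM was -0.15. The genes of such a correlation share 4 libraries and are not independent.

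Measured in TPM, which scales each library to the same total after correction for length, the members together held 3594 and 3619 in the controls and 2816 and 2768 with lactate, a ratio of 0.774. Hsp90b1, Calr and Hspa5 made up 67.8% of that difference. The 8 genes around BiP and GRP94 held 1097 and 1156 TPM in the controls and 695 and 699 with lactate, a ratio of 0.619. The 13 ERAD genes held 228 and 237 TPM in the controls and 245 and 271 with lactate, and without Herpud1 the other 12 held 221 and 230 against 203 and 235, so that the groups then overlapped. The share of Hspa5 in the TPM of all members was 7.91% and 9.40% in the controls and 4.37% and 5.72% with lactate, while that of Herpud1 was 0.193% in each control and 1.48% and 1.28% with lactate. Per length there were 40.9 and 48.6 Hspa5 fragments for each Herpud1 fragment in the controls and 2.95 and 4.46 with lactate.

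**Figure D4:**
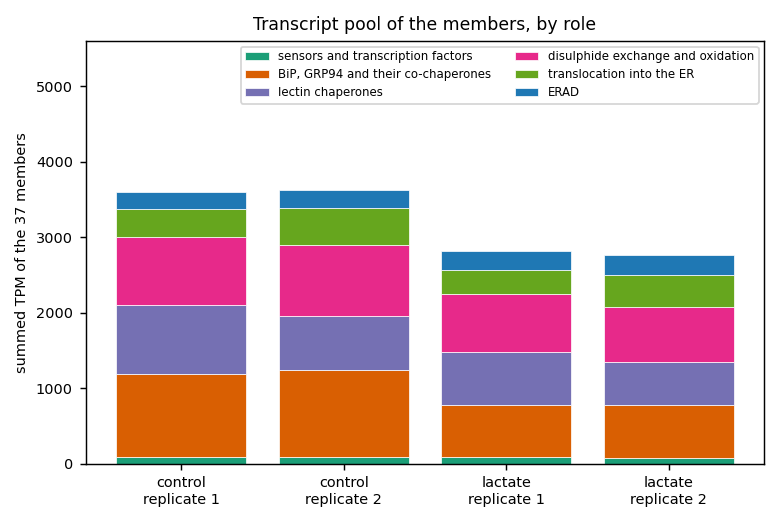
Summed TPM of the 37 members (y axis, from 0) in each of the 4 libraries (x axis), stacked by role. The pool stands at 3594 and 3619 in the controls and 2816 and 2768 with lactate, and the layer of BiP, GRP94 and their co-chaperones narrows from 1097 and 1156 to 695 and 699.

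The promoter letters were then set beside the changes. RefSeq promoters were matched for 31 members, and none was in the table for Atf6, Hyou1, Manf, Sec61a1, Erlec1 and Derl1. An ERSE, on either strand, was in the window of 10 of the 31 members (32.3%) and in 39 of all 32851 promoters (0.119%). The list was written from genes of the response in which this element is known, so these shares are a description and no test. Members were counted by gene and the others by single promoter. The 10 were Hspa5, Hsp90b1, Dnajc3, Calr, Canx, Pdia6, Creld2, Ero1lb, Syvn1 and Derl3. Their sites are shown where they help to compare a lower gene with one that was not, with CCAAT and CCACG in capitals and read along the site.
Hspa5, chr2:34772025-34772043, plus strand: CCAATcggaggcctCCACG
Hsp90b1, chr10:86705638-86705656, minus strand: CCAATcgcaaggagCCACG
Calr, chr8:84847075-84847093, plus strand: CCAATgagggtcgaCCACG
Pdia6, chr12:17266491-17266509, plus strand: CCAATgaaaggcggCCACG
Canx, chr11:50325800-50325818, minus strand: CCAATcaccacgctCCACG
Dnajc3, chr14:118937827-118937845, plus strand: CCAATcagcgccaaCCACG
Of the 10 members with an ERSE, 9 had negative log2 fold changes, with a median of -0.43. Dnajc3, at 0.11, was the exception, and Canx and Creld2 changed sign in at least 1 alternative. Of the 21 members with a promoter but no ERSE 11 had negative values, with a median of -0.13. Outside the members, 14 tested genes with an ERSE had 5 negative values and a median of 0.08. With 1 mismatch allowed in CCACG, 16 members and 0.998% of all promoters matched, which added Pdia3, Pdia4, Herpud1, Sel1l, Derl2 and Selenok. Of these 16, 12 had negative values, and of the 15 without such a match 8 did. Outside the members, 93 of 175 tested genes with such a match had negative values, with a median of -0.03.

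ERSE-II was in 2 members, Herpud1 and Dnajb11, and in 0.0365% of all promoters. The XBP1-type core of TGACG directly followed by TGG was in none of the 31 windows and in 0.676% of all promoters. Only these exact letters were counted, and the window of Hspa5 holds TGACGTGA, which differs in the last letter. The ATF4 core was in 1 member, Herpud1, and in 3.97% of all promoters, and it was in 5 of the 10 genes of the PERK and ATF4 list. These 5 were Trib3, Chac1, Asns, Atf3 and Nupr1. That list was written from genes of the branch itself, so its share is a description and no test. Outside the members, 332 tested genes with this core had 115 negative values and a median of 0.19. Asns was not called (edgeR adjusted p = 0.110), and Ddit3, which was called, had no such core. The core of Herpud1, the 1 member that held it, is set beside those of Chac1, Atf3 and Nupr1, with the core in capitals and 6 bases on each side. These 3 were all called higher, and the cores of Trib3 and Asns are not shown.
Herpud1, chr8:94386311-94386330, minus strand: gcgggcTGATGCAAcccgcc
Chac1, chr2:119351043-119351062, minus strand: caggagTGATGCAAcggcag
Atf3, chr1:191183430-191183449, plus strand: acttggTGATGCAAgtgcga
Nupr1, chr7:126625567-126625586, plus strand: cctgtcTGATGCAAtctggc
A match of letters is not evidence of binding, and factor binding was not measured in these libraries.

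**Figure D5:**
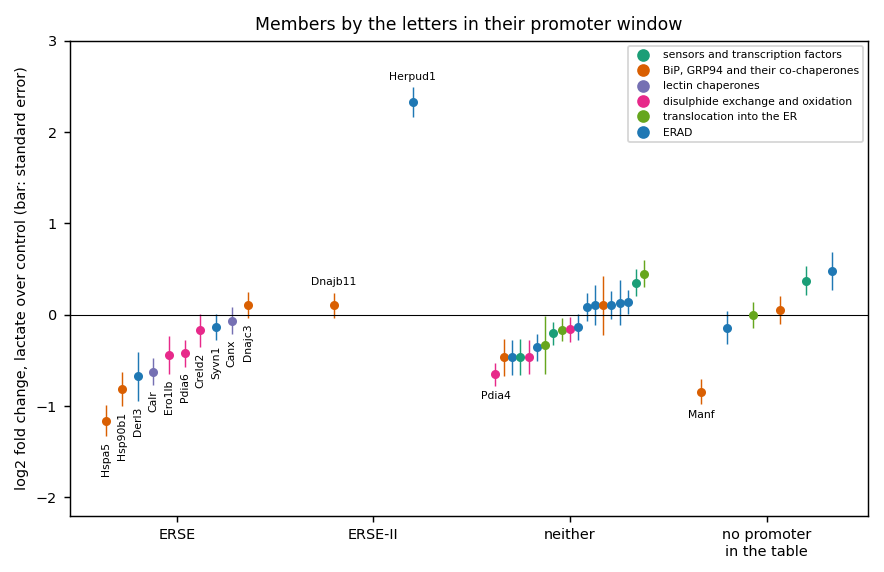
Log2 fold change of lactate over control with its SE (y axis) for the 37 members, placed by the letters found in their promoter window (x axis) and coloured by role. Of the 10 members with an ERSE 9 lie below 0, and Herpud1 lies at 2.33 with the ERSE-II genes.

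The other genes of the pathway were taken from written lists. On the PERK and ATF4 branch all 10 genes had positive values, with a median log2 fold change of 1.17, and 5 were called higher (0.552% of all genes tested). These were Chac1 at 4.10 (edgeR adjusted p = 0.0165), Atf3 at 2.49 (0.0434), Nupr1 at 2.18 (0.0195), Trib3 at 2.13 (0.0320) and Ddit3 at 1.33 (0.0396), while Atf4 itself had 1.00 (edgeR adjusted p = 0.0688). Ddit3 encodes the factor CHOP, Trib3 a pseudokinase, Chac1 a glutathione-degrading enzyme and Nupr1 a small chromatin protein. Eif2ak3, the gene of PERK, had 0.06 (SE 0.14). Herpud1 was at 2.33, against 1.33 to 4.10 for the called genes of this branch. That range is set by their being called, and whether Herpud1 shares their regulation was not tested. The ATF6 proteases Mbtps1 and Mbtps2, which release ATF6 from the membrane, had -0.13 and 0.29 with overlapping groups. Of 7 tested IRE1 effectors and partners none was called by edgeR or DESeq2. At an unadjusted p below 0.05 by edgeR 1 was higher (11.7% of all genes) and 2 were lower (11.4% of all genes). These were Ddrgk1 at 0.52, and Tbl2 at -0.44 and Bloc1s1, a substrate of IRE1 cleavage, at -0.70.

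Of a further 92 tested ER genes in 4 lists, none was called, 60 had positive and 32 negative values, and the median log2 fold change was 0.06. At an unadjusted p below 0.05 by edgeR, 11 of them were higher and 3 lower, where 11.7% and 11.4% of all genes were. By DESeq2 2 were higher and 1 lower at an adjusted p below 0.05, and of these Uggt2 also passed 2-fold. Of all genes with an adjusted p by that tool, 1.86% were higher and 3.13% lower. In folding and disulphide exchange 20 of 31 were positive, among them Uggt2, a glucosyltransferase that tests the fold of glycoproteins, at 1.41 (edgeR adjusted p = 0.0520), and Dnajb14, a membrane J-domain protein, at 0.95 (edgeR adjusted p = 0.0553), the 2 with the smallest p, and Tmx1, the next by p, was at 0.42. In glycan transfer and trimming 9 of 14 were positive, and the smallest p belonged to Dad1, a subunit of the oligosaccharyltransferase, at -0.82, ahead of Alg5 at 0.39 and Stt3a at 0.31. In translocation 14 of 21 were positive, with Srprb at 0.61 and Srpr, both subunits of the signal recognition particle receptor, at -0.35, followed by Srp68 at -0.29. In ERAD 17 of 26 were positive, with Vcp, the ATPase that pulls chains out of the membrane, at -0.46 and its cofactor Ufd1 at 0.33. Whether the 37 members differ from these genes was not tested.

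Markers of the mESCs and of other cells were read beside the members. Of the 10 mESC markers 7 had positive and 3 negative log2 fold changes, with a median of 0.17 and none called by either tool. At an unadjusted p below 0.05 by edgeR 3 were higher (11.7% of all genes) and 0 lower (11.4% of all genes). The 3 were Sox2 at 0.56, Zfp42 at 0.52 and Klf4 at 0.39, while Pou5f1 was at -0.40, Esrrb at -0.14 and Nanog at 0.08. Of the 16 feeder markers 7 had positive and 9 negative values, with a median of -0.04 and none called by either tool. At an unadjusted p below 0.05 by edgeR 1 was higher and 3 were lower, where 11.7% and 11.4% of all genes were. Col3a1 and Vim, both lower, had an adjusted p below 0.05 by DESeq2, where 3.13% of all genes with an adjusted p were lower. The 16 markers ran from Col3a1 at -0.90 and Vim at -0.75 to Pdgfrb at 0.56. All 8 tested primitive endoderm markers had positive values, with a median of 0.68 and a summed level over the 10 listed of 201 and 238 CPM in the controls and 303 and 316 with lactate. Both lactate libraries lay above both controls for 7 of the 8 (27% of all genes), and 4 were higher at an unadjusted p below 0.05 by edgeR (11.7% of all genes). Gata6, Sox7 and Sox17, factors of that lineage, were at an FPKM of at most 0.62 in every library. Others stood higher, with Lama1 at an FPKM of 15.9 and 21.5 in the controls and 32.8 and 35.6 with lactate (edgeR adjusted p = 0.0684, and below 0.05 by DESeq2), Gata4 at 1.06 and 0.73 against 1.61 and 1.47 (edgeR adjusted p = 0.163) and Pdgfra at 0.52 and 0.63 against 1.31 and 1.06 (edgeR adjusted p = 0.0879). Hspa5 and the folding enzymes are abundant in secretory cells such as fibroblasts. The part of feeder or endoderm cells in the values of the members was not tested.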

How the data were processed

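Per the labels and the methods of the study, the authors trimmed reads with cutadapt 1.16, mapped them to mm10 with STAR and counted reads in the exons of GENCODE release M23. The strand setting is not given in the sources used here. The deposited raw counts served the tests, and the deposited expected counts (rounded), TPM and FPKM of RSEM served an alternative and the levels per length.

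Counts were tested in R 4.3.3 with edgeR 4.0.16 (quasi-likelihood test in its legacy form, TMM factors, filterByExpr, no replicate term) over 18661 genes with Benjamini-Hochberg adjustment, at a biological coefficient of variation of 15.9%. Each SE was taken as the absolute log2 fold change over the square root of F. Genes were called at an adjusted p under 0.05 when they also differed more than 2-fold. On counts simulated for this comparison over 18348 genes, 200 of them changed, the test recovered 89% with 15 false calls. Recovery was scored at an adjusted p under 0.05 without the 2-fold rule. The planted log2 changes were 1.5 in size, in genes above a mean of 1 CPM, so recovery of smaller changes was not measured. The libraries were drawn independently, so deviations shared by libraries with the same number were not simulated. The alternatives were DESeq2 1.42.0, limma-trend (limma 3.58.1) on log2(FPKM + 1) and log2(FPKM + 0.1), other factors and filters, the replicate block, the RSEM counts, mitochondrial genes left out, and each library left out.

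The members, lists and alternatives were chosen with earlier results of these data known. Values in every library are given for members with an unadjusted p under 0.05, for those with groups that did not overlap and a log2 fold change beyond 0.3, for Hspa5, Xbp1, Atf6, Ern1, Herpud1 and Dnajb9, and in addition for Sec61b. From other lists the called genes or the 3 with the smallest p are named, except 1 gene of the ERAD list that is not reported here, and some marker genes were named after their values were seen. Positions are from GENCODE M21 on GRCm38, which holds 36 of the 37 identifiers in the same version (Xbp1 differs), and promoters from RefSeq. The 1153 transposable element families in the count table were not used.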

Additional observations from a re-analysis of the deposited data

How the results depend on the processing

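Over 16 alternatives 24 of the 37 members kept the sign of their log2 fold change, and the median over the members stayed between -0.21 and -0.07. With limma-trend on either FPKM scale 0 members were called higher and 0 lower, as no gene was called. Members called lower were 0 with library totals alone, 0 with at least 10 counts in every library and 0 with the RSEM expected counts, and between 0 and 2 with 1 library left out, being 0 without control replicate 1 and 2 without lactate replicate 1, where Hsp90b1 was added at -1.04. The adjusted p of Hspa5 was then 0.0550, 0.0509, 0.0541 and 0.0511 in the first 3 settings and without control replicate 1, and 0.243 and 0.235 with limma-trend. Members with an unadjusted p under 0.05 and higher values were 5 with upper-quartile factors, 5 with library totals and between 1 and 4 with 1 library left out, against 2, and those with lower values were 5 with library totals and 5 on each FPKM scale, against 9. With the replicate block these were 6 higher (25.7% of all genes) and 18 lower (25.5% of all genes), and 22 members had an adjusted p under 0.05, where 44.5% of all genes had, of which Hspa5 and Herpud1 were called. Deviations of libraries with the same number correlated at 0.56 over 18661 genes and at 0.80 over the members, and the labels do not say what the numbers share, so whether they pair the libraries is not known. By DESeq2 6 members had an adjusted p under 0.05, the 5 lower ones being Hspa5, Hsp90b1, Manf, Calr and Pdia4, where 3.13% of all genes with an adjusted p were lower and 1.86% higher, and without a filter on low counts the same 6. Of all genes 103 were called higher and 65 lower, against 190 and 168 by DESeq2, 761 and 395 with the replicate block, 482 and 325 without a filter, 27 and 17 with the RSEM counts, 40 lower with library totals, and 45 to 502 higher and 39 to 367 lower with 1 library left out. The causes were not tested.

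Of the 37 members 13 reversed in at least 1 alternative, Sec61b among them from -0.34. With limma-trend Canx was 0.031 on both scales and Sec61a1 0.024 and 0.025, and Sec61a1 was also 0.032 with upper-quartile factors, 0.066 with library totals and 0.011 with at least 10 counts. With 1 library left out, the log2 fold change ran from -0.11 to 0.21 for Hyou1, from -0.30 to 0.50 for Dnajb9, from -0.014 to 0.21 for Dnajb11, from -0.0031 to 0.20 for Dnajc3, from -0.37 to 0.035 for Creld2, from -0.11 to 0.070 for Sec61a1 and from -0.78 to 0.037 for Sec61b. Among the ERAD members it ran from -0.022 to 0.17 for Os9, from -0.14 to 0.35 for Edem3, from -0.39 to 0.036 for Derl1, from -0.060 to 0.23 for Derl2 and from -0.19 to 0.37 for Selenos. With 2 libraries a group, no member with a change under 2-fold passed an adjusted p below 0.05 in the main edgeR test. This held for members with few reads, such as Derl3 and Ero1lb, and with many, such as Calr (edgeR adjusted p = 0.0805). By DESeq2 Hsp90b1, Manf, Calr and Pdia4 did pass.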
